A study of Mus musculus with 12 samples.

Results

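Expression of 10 chemokine genes that activated lymphocytes are known to make (Ccl1, Ccl3, Ccl4, Ccl5, Ccl9, Ccl17, Ccl22, Xcl1, Cxcl9 and Cxcl10) was examined in mouse splenocytes after coculture with tumour cells. Members were chosen by gene symbol in the platform's probe annotation, which gave 12 probe sets for these 10 genes, out of 18193 genes named on the array. The splenocytes came from DBA/2 mice aged 10 weeks and were kept for 9 days with KLN-205, a line grown from a squamous carcinoma of mouse lung. All 4 groups shared a knockdown of SEMA3A in the tumour cells (KLN-205KD) and interleukin-2 at 100 units/mL, given every 3 days. In the SEMA6A+SEMA3A group the line overexpressed the membrane-bound semaphorin SEMA6A, and purified SEMA3A, a secreted semaphorin, was added at 10 µg/mL. The SEMA6A group had the overexpression alone, the SEMA3A group had the added protein alone, and the control group had neither. Each group had 3 arrays, 12 in all. The labels name neither the vectors behind the knockdown and the overexpression nor whether a tumour line was a single clone. Nor do they tell whether arrays of 1 group stem from different cultures or mice, so the p-values cover only the spread between these samples, which may be technical.

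Chemokines are small secreted proteins that bind G protein-coupled receptors on leukocytes and direct their migration. Activated CD8 T cells and natural killer cells release XCL1, CCL3, CCL4 and CCL5 together with interferon-gamma, and activated T cells also make CCL1. CCL17 and CCL22 are released mainly by dendritic cells and macrophages, although activated T cells can make them, while CXCL9 and CXCL10 are induced by interferon-gamma in many cell types.

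The promoters of Ccl1, Ccl3 and Xcl1 are shown because these were the 3 genes with the smallest unadjusted p-values among the chemokines in SEMA6A against control. Each is the stretch of 250 bases before the gene's start, 5′ to 3′ on the gene's own strand, which is the minus strand for all 3. Sequences and coordinates are from RefSeq on GRCm38.p6, whose promoter table matched 8 of the 10 genes, without Ccl4 and Ccl5. Capitals mark matches on either strand to GGAAA, the core bound by NFAT factors downstream of the T cell receptor, or to the consensus of NF-kappaB.
Ccl1, chr11:82179813-82180062: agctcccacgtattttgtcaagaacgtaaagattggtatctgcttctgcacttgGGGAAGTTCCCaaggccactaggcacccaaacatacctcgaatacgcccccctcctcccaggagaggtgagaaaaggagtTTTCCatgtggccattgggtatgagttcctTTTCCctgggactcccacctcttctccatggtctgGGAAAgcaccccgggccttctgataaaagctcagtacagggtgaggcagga
Ccl3, chr11:83649379-83649628: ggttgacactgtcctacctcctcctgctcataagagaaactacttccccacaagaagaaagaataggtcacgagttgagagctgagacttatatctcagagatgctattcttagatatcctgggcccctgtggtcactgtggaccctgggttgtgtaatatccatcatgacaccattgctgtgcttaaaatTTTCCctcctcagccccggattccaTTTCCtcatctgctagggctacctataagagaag
Xcl1, chr1:164935523-164935772: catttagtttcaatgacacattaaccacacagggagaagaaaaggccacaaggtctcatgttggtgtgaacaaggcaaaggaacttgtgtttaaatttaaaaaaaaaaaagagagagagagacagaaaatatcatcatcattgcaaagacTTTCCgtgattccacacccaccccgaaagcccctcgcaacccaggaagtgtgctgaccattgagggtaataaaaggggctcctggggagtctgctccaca
The Ccl1 window held 3 matches to GGAAA. It also held 2 matches to the NF-kappaB consensus, which lie on opposite strands and overlap each other, from base 196 to base 186 before the start. The Ccl3 window held 2 matches to GGAAA and the Xcl1 window 1, and no match to GGAAA overlapped one to the NF-kappaB consensus in these windows. The AP-1 motif TGANTCA, searched on both strands, had 0 matches in the 3 windows. Among all 32851 promoters of the same length, 55.6% held GGAAA, 7.25% the NF-kappaB consensus and 6.75% TGANTCA. A match describes the letters only, and binding was not measured here.

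The deposited values are MAS5 signals, a linear brightness per probe set. Array medians ranged from 42.52 to 53.51 and the highest signals from 44046.4 to 53211.8. A gene was tested when its probe set lay above the median of its array on at least 3 arrays, which 11325 genes did. The cultures carried T cell RNA, with Cd3d at a median signal of 20102.2 over the 12 arrays and Cd8a at 3447.3, while Cd4 did not pass this filter at 8.614. In the 3'/5' signal ratio of Gapdh, which rises as RNA degrades, 1 array stood apart. It was 1.22 on SEMA6A replicate 2, against 0.767 to 0.818 on the other arrays. The ratios of the transferrin receptor and pyruvate carboxylase were also highest there, at 35.7 and 15.5, and next highest on SEMA6A replicate 3, at 23.3 and 10.3. Differences of Xcl1, Ccl1, Ccl3 and several related genes are also given without SEMA6A replicate 2, which does not remove every array with a raised ratio. In such bulk RNA, fewer cells of a type and less RNA per cell cannot be told apart.

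Only some of the 10 genes were bright in these cultures, and brightness does not tell which cells made the RNA. Xcl1, Ccl3, Ccl4 and Ccl5 lay above the array median on all 12 arrays. Ccl1 did so on 8 arrays, Ccl9 on 5 and Ccl17 on 3, so these passed the filter with part of their arrays in the dim range. Ccl22 lay above it on 2 arrays, and Cxcl9 and Cxcl10 on 0, so these 3 genes were not among the 7 tested. Probe sets differ in how brightly they report RNA, so the genes are described one by one.

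**Figure D1:**
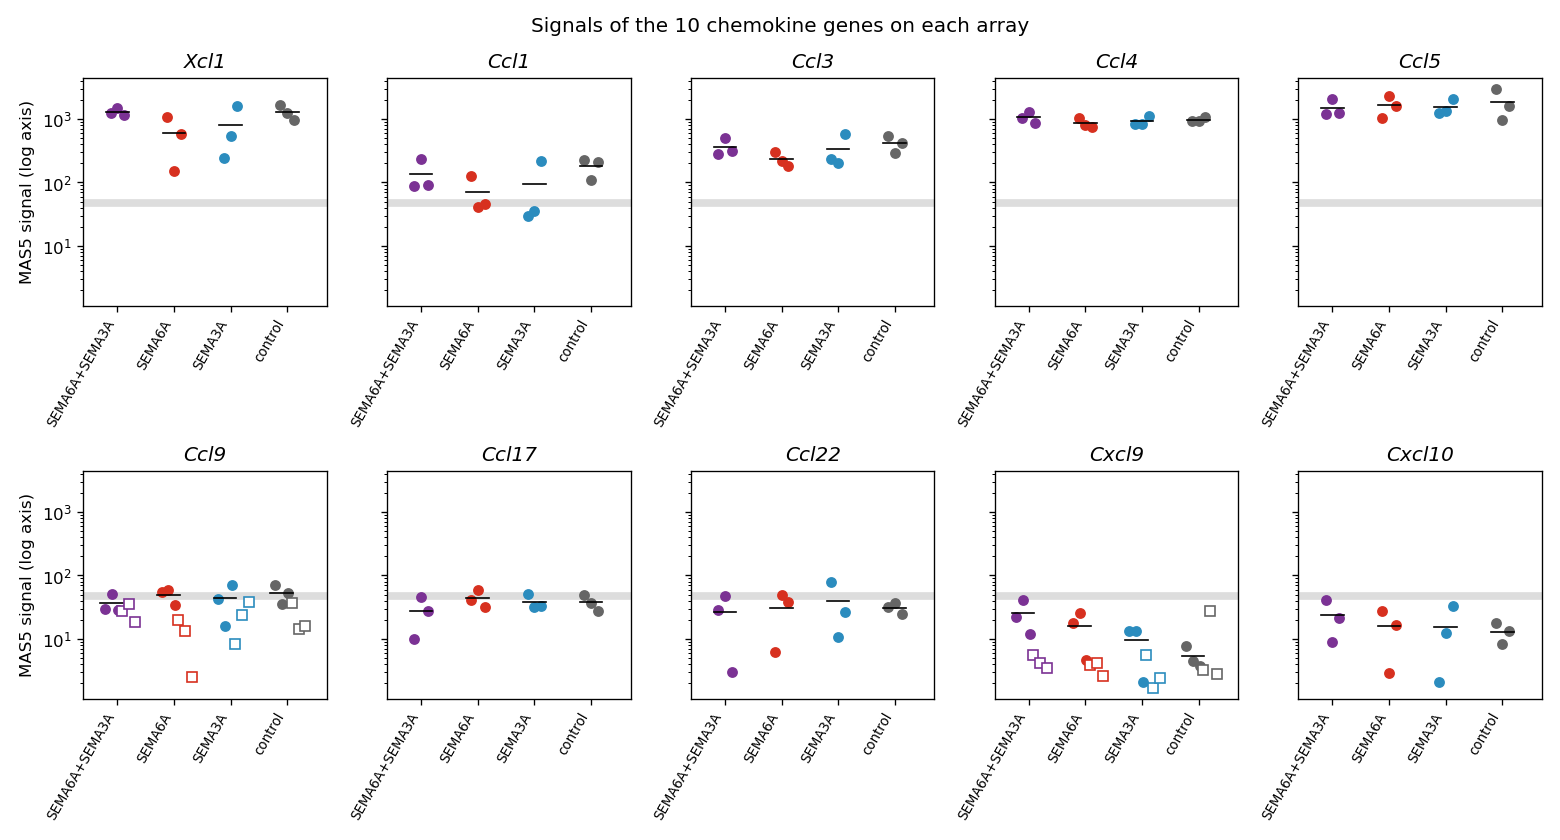
MAS5 signal (log axis) of the 10 chemokine genes on the 12 arrays, by group. Each point is 1 array, black lines are means of 3 arrays, open squares show the second probe set of Ccl9 and Cxcl9, and the grey band spans the array medians of 42.52 to 53.51; Xcl1, Ccl3, Ccl4 and Ccl5 lie above the band on every array.

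Xcl1 encodes lymphotactin, which draws cross-presenting dendritic cells through the receptor XCR1. Its signals were 1230.3, 1524.5 and 1180.0 in the SEMA6A+SEMA3A group. They were 1064.1, 150.8 and 590.7 in the SEMA6A group. In the SEMA3A group the signals were 243.6, 548.9 and 1600.3, against 1691.3, 1233.1 and 973.2 in controls. All arrays with both factors or neither lay at or above 973.2, while each group with a single factor held 1 array in that range and 2 below it. Xcl1 therefore spanned 11.2-fold between its lowest and highest array. Its mean was 1311.6 ± 186 with both factors, 601.9 ± 457 with SEMA6A, 797.6 ± 712 with SEMA3A and 1299.2 ± 364 in controls (SD, n = 3 each).

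The log2 difference of Xcl1 in SEMA6A against control was -1.43 ± 0.64 (SE; 95% interval -2.80 to -0.05; limma adjusted p = 0.475), with overlapping groups. Without SEMA6A replicate 2, the array with the high Gapdh ratio, it was -0.66, whereas leaving out SEMA6A replicate 1 gave -2.02. In SEMA3A against control it was -1.06 ± 0.64 (SE; limma adjusted p = 0.622), and it ran from -1.76 without SEMA3A replicate 3 to -0.42 without SEMA3A replicate 1. With both factors against control it was 0.07 ± 0.64, with a 95% interval from -1.31 to 1.45 that spans more than 2-fold in either direction. Both factors against SEMA6A alone gave 1.5 ± 0.64 (SE; limma adjusted p = 0.424). Here the 3 arrays with both factors all lay above the 3 with SEMA6A, which made Xcl1 the only 1 of the 7 tested chemokines whose groups did not overlap in any comparison. Of all tested genes, 6.75% were higher and 7.31% lower without overlap in that comparison. Without SEMA6A replicate 2 this difference was 0.73.

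Ccl1 encodes a T cell chemokine that acts through the receptor CCR8. Its signals were 88.38, 231.2 and 89.99 with both factors. They were 126.1, 40.76 and 45.38 with SEMA6A. With SEMA3A they were 30.0, 35.26 and 214.5, against 229.1, 108.9 and 214.2 in controls. All 3 controls and all 3 arrays with both factors lay at 88.38 or above, and 2 arrays of each single-factor group lay at 45.38 or below, under the median of their own array. The means were 136.5 ± 82.0 with both factors, 70.73 ± 48.0 with SEMA6A, 93.25 ± 105 with SEMA3A and 184.0 ± 65.5 in controls (SD, n = 3 each). The log2 difference was -1.29 ± 0.59 in SEMA6A against control (SE; limma adjusted p = 0.475) and -1.26 ± 0.59 in SEMA3A against control (SE; limma adjusted p = 0.569). These values are on the log2(signal + 16) scale, which understates differences of dim genes such as Ccl1. Without SEMA3A replicate 3, its bright array, the SEMA3A difference was -2.04 (limma adjusted p = 0.128), and without SEMA3A replicate 1 it was -0.84 (limma adjusted p = 0.996).

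Ccl3 and Ccl4 encode the macrophage inflammatory proteins 1-alpha and 1-beta, neighbouring genes that cytotoxic cells switch on after antigen contact. Ccl3 signals were 284.3, 508.2 and 308.9 with both factors. They were 299.0, 217.0 and 184.9 with SEMA6A. The SEMA3A arrays gave 235.8, 205.5 and 590.2, against 539.8, 295.8 and 422.8 in controls. SEMA6A arrays reached 299.0 at most and the lowest control was at 295.8, so the groups overlapped by a small margin. The log2 difference of Ccl3 in SEMA6A against control was -0.80 ± 0.36 (SE; 95% interval -1.57 to -0.03; limma adjusted p = 0.475), and -0.76 without SEMA6A replicate 2. In SEMA3A against control it was -0.41 ± 0.36 (SE; limma adjusted p = 0.729), with the highest Ccl3 signal of all 12 arrays on SEMA3A replicate 3.

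Ccl4 was the steadiest of the brighter chemokines, with 1.75-fold between its lowest and highest array. Its signals were 1058.5, 1291.0 and 857.1 with both factors. They were 1047.5, 807.7 and 738.3 with SEMA6A. The SEMA3A arrays had 843.7, 842.1 and 1133.3, against 949.5, 932.3 and 1069.4 in controls. All groups overlapped. The log2 difference of Ccl4 was -0.19 ± 0.17 in SEMA6A against control, with a 95% interval from -0.56 to 0.18, and -0.07 ± 0.17 in SEMA3A against control. Both factors against SEMA6A gave 0.32 ± 0.17 (SE; limma adjusted p = 0.463).

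Ccl5 encodes RANTES, which memory and effector T cells keep in store and release on activation. Its signals were 1193.6, 2052.9 and 1233.3 with both factors. They were 1052.9, 2337.1 and 1624.7 with SEMA6A. With SEMA3A they were 1245.0, 1365.8 and 2070.9, against 3016.6, 971.5 and 1634.1 in controls. The highest and the lowest Ccl5 signal of all 12 arrays were both controls, and every pair of groups overlapped. The means were 1493.3 ± 485 with both factors, 1671.6 ± 643 with SEMA6A, 1560.6 ± 446 with SEMA3A and 1874.1 ± 1040 in controls (SD, n = 3 each). Log2 differences of Ccl5 ranged from -0.20 with both factors against control to 0.03 in the interaction, and the 95% interval in SEMA6A against control ran from -0.88 to 0.72.

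The 4 lowest signals of Xcl1, Ccl1, Ccl3 and Ccl4 were on the same 4 arrays, SEMA6A replicates 2 and 3 and SEMA3A replicates 1 and 2. These arrays were noticed after the values were seen, and 696 of the 11325 tested genes, or 6.15%, had their 4 lowest values on them. A further 940, or 8.3%, had their 4 highest values there. Ccl5, Ccl9 and Ccl17 had other arrays among their lowest 4.

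Other measures also differed on those arrays. The 3'/5' ratio of the transferrin receptor control probe sets was 12.2, 5.93 and 11.2 with both factors. It was 8.39, 35.7 and 23.3 with SEMA6A. With SEMA3A it was 17.2, 17.6 and 18.1, against 6.82, 8.41 and 9.34 in controls. The ratio was thus high on SEMA3A replicate 3 as well, where Xcl1, Ccl1, Ccl3 and Ccl4 were not low. Other control ratios did not mark these 4 arrays as a set. Pyruvate carboxylase was highest on SEMA6A replicates 2 and 3, at 15.5 and 10.3. On SEMA3A replicates 1 and 2 it was 6.66 and 6.9, below the controls at 7.01 to 8.26. Gapdh was at 1.22 on SEMA6A replicate 2 but at 0.771 to 0.782 on the rest of the 4. Of 7 dendritic cell markers named on the array, 4 passed the filter (Itgax, Siglech, Ccr7 and Batf3) and Flt3, Zbtb46 and Cd209a did not. The summed signal of that list ranged from 718.4 to 790.0 with both factors, from 348.0 to 720.6 with SEMA6A, from 422.0 to 602.4 with SEMA3A and from 628.2 to 756.0 in controls, with the 4 lowest sums on the same 4 arrays. A sum follows its brightest markers most, here Ccr7 (57.28 to 335.4 over the arrays) and Batf3 (90.79 to 323.4). Ccr7 by itself also had its 4 lowest signals on these 4 arrays, so the sum may reflect few genes. Of 8 macrophage and monocyte markers 4 passed (Csf1r, Cd14, Cd68 and Fcgr1), while Adgre1, Itgam, Lyz2 and Mrc1 did not. Their sums were 667.4 to 695.0 with both factors, 589.6 to 897.5 with SEMA6A, 646.2 to 905.7 with SEMA3A and 583.3 to 628.3 in controls, highest on these 4 arrays. Of 6 mast cell and basophil markers 3 passed (Cpa3, Mcpt8 and Kit), with Fcer1a, Ms4a2 and Mcpt4 below the filter. The mast cell and basophil sums were 2710.5 to 3224.4 with both factors, 2599.6 to 4222.3 with SEMA6A, 3068.7 to 5532.8 with SEMA3A and 2663.9 to 3377.7 in controls, again highest on these 4 arrays. T cell sums, with 5 of 6 markers past the filter, were 39222.2 to 40682.5 with both factors, 34868.1 to 45073.6 with SEMA6A, 41564.6 to 45707.6 with SEMA3A and 36550.4 to 42503.1 in controls, and were neither lowest nor highest on these 4 arrays as a set. Sums of natural killer cell markers (5 of 5 passed), B cell markers (2 of 5), squamous carcinoma markers (6 of 8) and neutrophil markers (0 of 5) did not have these 4 arrays as their lowest or highest set. The part of RNA quality and of these cell types in the chemokine values was not tested.

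**Figure D2:**
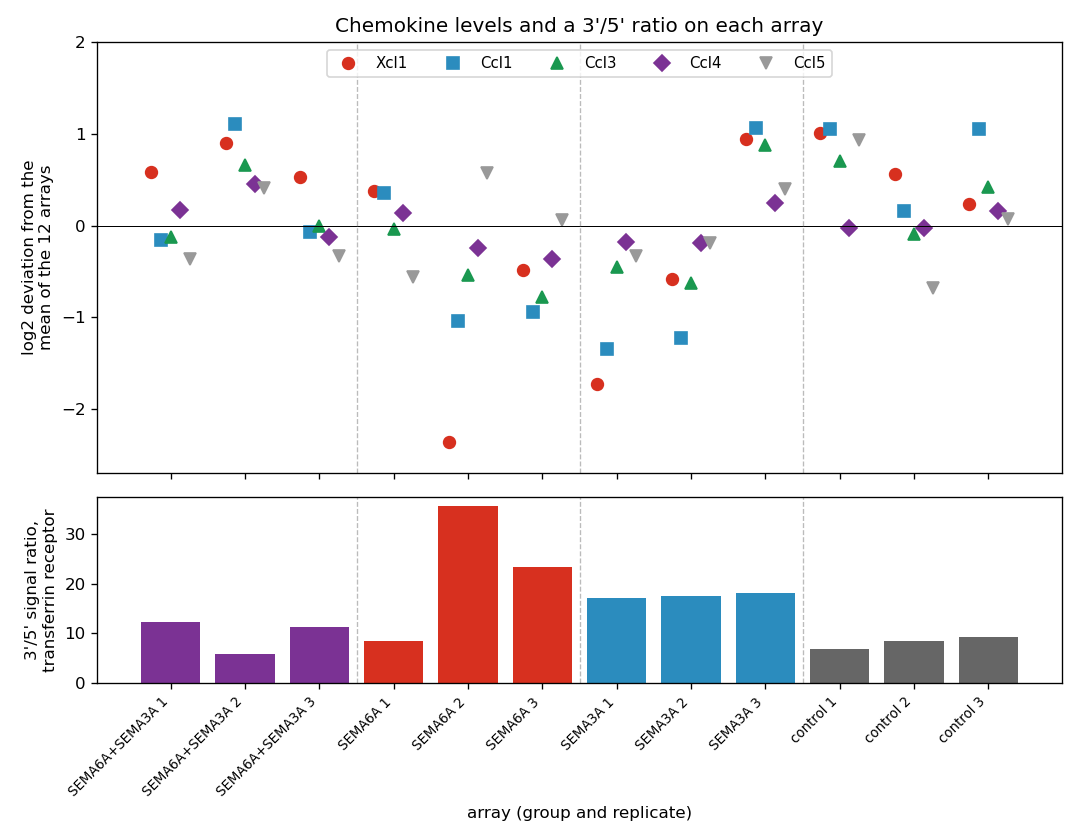
Log2 deviation of Xcl1, Ccl1, Ccl3, Ccl4 and Ccl5 from their mean over the 12 arrays (upper panel) and the 3'/5' signal ratio of the transferrin receptor (lower panel, bars from 0), by array. SEMA6A replicates 2 and 3 and SEMA3A replicates 1 and 2 hold the lowest values of Xcl1, Ccl1, Ccl3 and Ccl4, and their ratios lie between 17.2 and 35.7.

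The remaining 5 chemokines were dim. Ccl9 encodes a mouse chemokine that binds CCR1, and its brighter probe set had signals of 29.93, 51.15 and 28.23 with both factors. It had 54.48, 59.99 and 33.84 with SEMA6A. With SEMA3A it had 42.7, 15.96 and 71.85, against 71.98, 35.21 and 53.6 in controls. All groups overlapped, and its largest log2 difference was -0.52 ± 0.37 with both factors against control (SE; limma adjusted p = 1.0). The second probe set of Ccl9 lay below the array median on every array, between 2.521 and 38.44, and in that same comparison differed by 0.06 ± 0.35, so the probe sets had opposite signs.

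Ccl17 and Ccl22 encode the ligands of CCR4, a receptor of helper and regulatory T cells. Ccl17 ranged from 9.961 to 58.16 over the arrays, with means of 27.7 ± 17.7 with both factors, 43.64 ± 13.5 with SEMA6A, 38.74 ± 11.3 with SEMA3A and 37.54 ± 10.8 in controls (SD, n = 3 each). The log2 difference of Ccl17 furthest from 0 was -0.57 ± 0.33 with both factors against SEMA6A (SE; limma adjusted p = 0.479). Ccl22 had signals of 28.77, 47.3 and 2.978 with both factors and of 6.244, 48.44 and 38.72 with SEMA6A. It had 79.16, 10.78 and 26.73 with SEMA3A and 32.16, 36.95 and 24.34 in controls. Within the SEMA3A group alone it spanned 10.78 to 79.16, and signals this dim cannot decide whether Ccl22 changed.

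Cxcl9 and Cxcl10 encode the interferon-induced ligands of CXCR3, the homing receptor of effector T cells, and stayed below the array median on every array. Cxcl10 ranged from 2.059 to 41.25, with means of 23.89 ± 16.2 with both factors, 15.71 ± 12.4 with SEMA6A, 15.61 ± 15.5 with SEMA3A and 13.05 ± 4.65 in controls (SD, n = 3 each). The brighter probe set of Cxcl9 had signals of 22.3, 41.39 and 11.88 with both factors, against 7.599, 4.486 and 3.734 in controls, without overlap. It had 17.81, 25.91 and 4.696 with SEMA6A and 13.42, 13.29 and 2.084 with SEMA3A. Of all tested genes, which leave out Cxcl9, 8.55% were higher without overlap with both factors against control. In a fit of all probe sets without the filter, that probe set of Cxcl9 differed by 0.79 ± 0.30 with both factors against control (SE; limma adjusted p = 0.787). The other Cxcl9 probe set differed by -0.37 ± 0.26, in the opposite direction, and lay at 5.555 or below on all arrays but control replicate 2, where it was at 27.44.

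SEMA6A against control asks what the overexpression did without added SEMA3A. Of the 7 tested chemokines, 0 passed a Benjamini-Hochberg adjusted p of 0.05 in limma, and 0% of all 11325 tested genes did. At an unadjusted p under 0.05, 3 of the 7 were lower (Xcl1, Ccl1 and Ccl3) and 0 were higher, against 3.92% lower and 6.53% higher of all tested genes. Log2 differences were below 0 for 6 of 7, against 46.7% of all genes, with a median of -0.19 against 0.02 over all genes. That median ran from -0.51 without SEMA6A replicate 2, where Ccl17 no longer passed the filter, to -0.10 without SEMA6A replicate 3. The exception was Ccl17, at 0.08 ± 0.33. None of the 7 had groups that did not overlap, against 4.77% lower and 7.36% higher of all genes. Without SEMA6A replicate 2, the differences of Xcl1, Ccl1 and Ccl3 were -0.66, -1.04 and -0.76, and none of the 3 kept an unadjusted p under 0.05. Without SEMA6A replicate 1, whose Xcl1 and Ccl1 signals lay in the range of the controls, 512 genes passed the adjusted threshold but 0 of the chemokines did.

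SEMA3A against control asks what the added protein did by itself, with the same control arrays. Again 0 of the 7 passed the adjusted threshold, as did 0% of all tested genes. At an unadjusted p under 0.05 there were 0 of 7, against 8.74% of all genes in either direction. All 7 log2 differences were below 0, from -1.26 for Ccl1 to -0.05 for Ccl17, against 48.3% of all genes, and the median was -0.37 against 0.01. Xcl1, Ccl1, Ccl3 and Ccl4 varied together over the 12 arrays, with Pearson r from 0.67 to 0.94 between pairs. The signs of the 7 are thus not separate observations, here or in the other comparisons. All 7 had overlapping groups, where 7.31% of all genes were lower and 9.92% higher without overlap. This median ran from -0.75 without SEMA3A replicate 3 to -0.07 without SEMA3A replicate 2. The difference of Ccl3 ran likewise from -0.88 to -0.13 when these arrays were left out, so single arrays set the size of the SEMA3A values.

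With both factors against control, which uses these control arrays too, 0 of 7 chemokines passed the adjusted threshold, with 0% of all genes. At an unadjusted p under 0.05 there were also 0 of 7, against 4.11% of all genes. The log2 differences of the 7 ran from -0.52 for Ccl9 to 0.12 for Ccl4, with 5 of 7 below 0 against 46.6% of all genes. Groups overlapped for all 7, while 6.53% of all genes were lower and 8.55% higher without overlap. Ccl1 was at -0.46 ± 0.59 (SE; 95% interval -1.73 to 0.81) and Ccl3 at -0.17 ± 0.36 (SE; 95% interval -0.94 to 0.60), so these intervals leave room for differences as large as those estimated with SEMA3A alone.

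Both factors were also set against each factor alone. Against SEMA3A, 0 of 7 passed the adjusted threshold, with 0% of all genes, and 0 of 7 had an unadjusted p under 0.05, against 11.2% of all genes. Their groups all overlapped, where 10.7% of all genes were lower and 10.3% higher without overlap. Xcl1 differed by 1.13 ± 0.64 (SE; limma adjusted p = 0.491) and Ccl1 by 0.80 ± 0.59 (SE; limma adjusted p = 0.591). Leaving out 1 SEMA3A array put Xcl1 at 0.49 (without replicate 1) to 1.83 (without replicate 3) and Ccl1 at 0.38 to 1.58. Against SEMA6A, 0 of 7 passed, with 0% of all genes, and 1 of 7, Xcl1, was higher at an unadjusted p under 0.05, against 5.21% of all genes. Ccl1 differed there by 0.83 ± 0.59 and Ccl3 by 0.63 ± 0.36. Below 0 were 3 of 7 chemokines in each of these comparisons, against 48.6% of all genes in the comparison with SEMA3A and 50.2% in that with SEMA6A. The median of the 7 was 0.20 against SEMA3A, with a range from -0.05 without SEMA3A replicate 2 to 0.34 without SEMA3A replicate 3, so its sign turned on 1 array. Against SEMA6A the median was 0.32, with a range from 0.17 to 0.47 over the arrays left out.

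The interaction is the effect of SEMA6A with SEMA3A present minus its effect without. For Xcl1 it was 2.55 ± 0.90 on the log2 scale (SE; 95% interval 0.61 to 4.50; limma adjusted p = 0.211). For Ccl1 it was 2.09 ± 0.83 (SE; 95% interval 0.29 to 3.89; limma adjusted p = 0.233), and for Ccl3 it was 1.04 ± 0.51 (SE; 95% interval -0.05 to 2.13; limma adjusted p = 0.292). A positive value means that the level with both factors lay above the level that the separate effects add up to. Of the 7 chemokines 0 passed the adjusted threshold, with 0% of all genes, and 2, Xcl1 and Ccl1, were higher at an unadjusted p under 0.05, against 7.82% of all genes. Ccl4 was at 0.39 ± 0.24, Ccl5 at 0.03 ± 0.53, Ccl9 at -0.02 ± 0.53 and Ccl17 at -0.52 ± 0.46, which puts 2 of 7 below 0, against 50.5% of all genes.

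Single arrays moved the interaction across the threshold. Without SEMA6A replicate 1, Xcl1 was at 3.15 (limma adjusted p = 0.0323), with 1286 genes past the threshold. Without SEMA3A replicate 3, Ccl1 was at 2.87 (limma adjusted p = 0.0418), with 281 genes past it. Each of these fits left out the array on which that chemokine was brightest within its single-factor group. Such a choice by itself makes the interaction larger. Without SEMA6A replicate 2, the array with the high Gapdh ratio, Xcl1 was at 1.79 (limma adjusted p = 0.29), Ccl1 at 1.84 and Ccl3 at 0.99. With each array weighted by its fit, Xcl1 was at 2.39, Ccl1 at 2.55 and Ccl3 at 1.42, all 3 past the threshold at limma adjusted p of 0.018, 0.0216 and 0.0332. That weighted fit called 1847 of the 11325 tested genes in the interaction, so passing it was not particular to these chemokines.

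**Figure D3:**
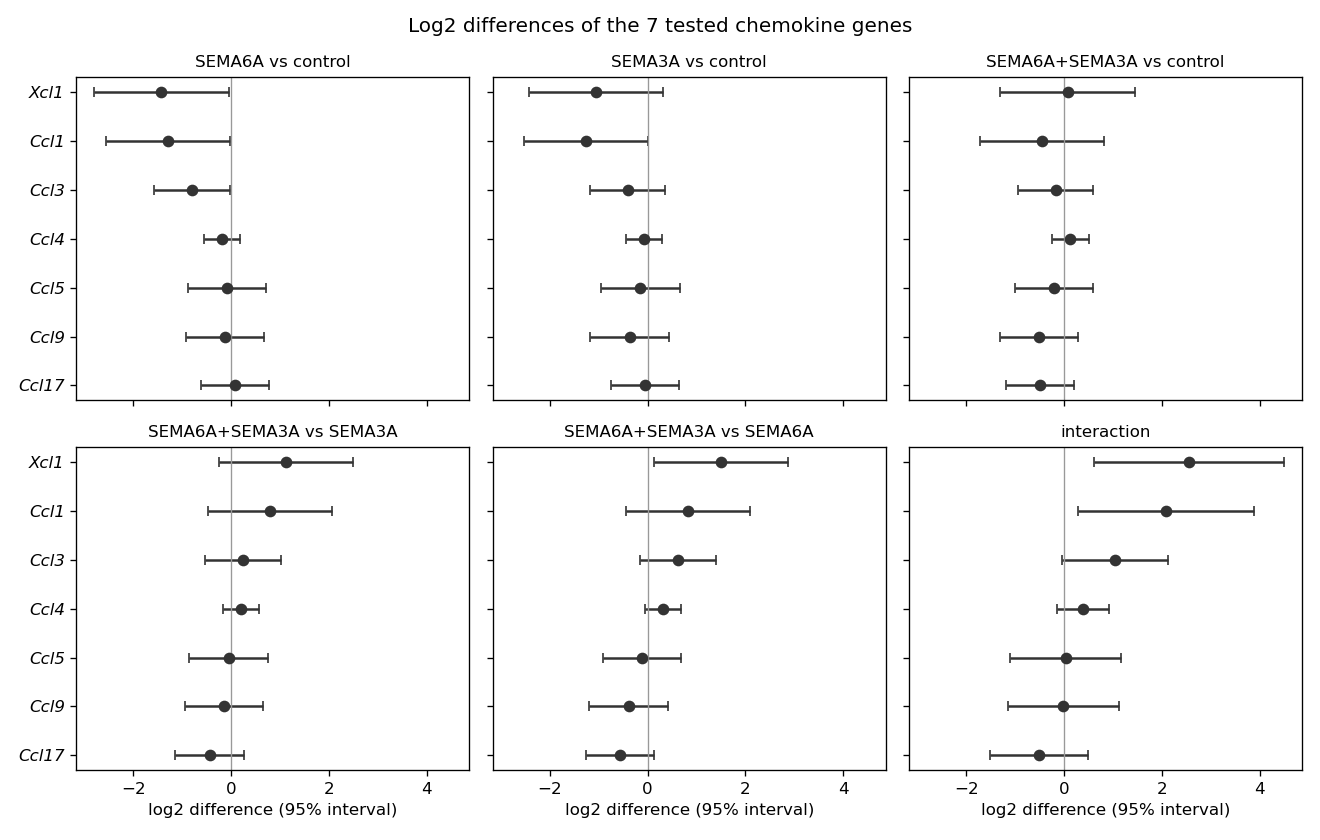
Log2 differences of the 7 tested chemokine genes with 95% intervals in the 5 comparisons of groups and the interaction (limma, 3 arrays per group). Intervals of Xcl1, Ccl1 and Ccl3 lie below 0 in SEMA6A against control, and those of Xcl1 and Ccl1 above 0 in the interaction, while no adjusted p passed 0.05.

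Of the 7 receptors listed for these chemokines, 6 were named on the array and 2 were tested. Cxcr3, the receptor of CXCL9 and CXCL10, was bright, at 2096.6 ± 382 with both factors, 2356.6 ± 459 with SEMA6A, 2435.8 ± 308 with SEMA3A and 2635.3 ± 763 in controls (SD, n = 3 each). Its log2 differences from control were -0.28 ± 0.21 with both factors, -0.12 ± 0.21 with SEMA6A and -0.06 ± 0.21 with SEMA3A. Ccr1, a receptor of CCL3, CCL5 and CCL9 on myeloid and T cells, ranged from 8.565 to 95.7, with differences between -0.35 and 0.40 over all comparisons. Neither passed in any comparison. Ccr3 (0.7619 to 16.75), Ccr4 (6.709 to 49.83), Ccr8 (0.9562 to 20.99) and Xcr1 (4.124 to 28.07) did not pass the filter, so the signals of the CCL1, XCL1 and CCL17 receptors were too dim to test.

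Among 11 tested receptors of other chemokines, 0 passed the adjusted threshold in any comparison with all 12 arrays. Ccr7, the lymph node homing receptor of naive T cells and mature dendritic cells, had signals of 251.2, 253.5 and 268.0 with both factors. They were 282.9, 57.28 and 118.6 with SEMA6A. With SEMA3A they were 89.55, 178.7 and 213.5, against 297.9, 291.0 and 335.4 in controls. Every control signal lay above that of every other array, those with both factors included, although on the normalized scale of the fits SEMA6A replicate 1 overlapped the controls. On that scale 4.77% of all tested genes were lower without overlap in SEMA6A against control. The share was 7.31% in SEMA3A against control and 6.53% with both factors against control. The difference of Ccr7 was -1.18 ± 0.41 in SEMA6A against control (SE; limma adjusted p = 0.475), -0.96 ± 0.41 in SEMA3A against control (SE; limma adjusted p = 0.557) and 1.91 ± 0.58 in the interaction (SE; limma adjusted p = 0.197). The Ccr7 values rest on single arrays: in SEMA6A against control leaving out SEMA6A replicate 2 gave -0.69 and leaving out SEMA6A replicate 1 gave -1.73, and the interaction was 1.42 and 2.46 in these fits. Without SEMA6A replicate 1 both of these values of Ccr7 passed the adjusted threshold, as did its difference of 1.51 with both factors against SEMA6A, which was 0.46 without SEMA6A replicate 2. Cxcr4, the receptor of CXCL12, had signals of 92.73, 84.93 and 79.15 with both factors. They were 98.8, 196.8 and 135.2 with SEMA6A. With SEMA3A they were 154.1, 217.5 and 117.5, against 103.9, 71.88 and 113.7 in controls. All SEMA3A arrays lay above all controls, as they did for 9.92% of all tested genes. The interaction of Cxcr4 was -1.23 ± 0.34 (SE; limma adjusted p = 0.197), opposite in sign to that of Ccr7. It was -1.01 without SEMA6A replicate 2 and, past the threshold, -1.41 without SEMA6A replicate 1. Ccr2, the inflammatory monocyte and effector T cell receptor of CCL2, differed by -0.52 ± 0.20 with both factors against SEMA6A (SE; limma adjusted p = 0.424). Without SEMA6A replicate 2 it differed by -0.32, and by -0.74, past the threshold, without SEMA6A replicate 1. Ackr1, a scavenger of chemokines, differed by 0.68 ± 0.22 with both factors against SEMA3A (SE; limma adjusted p = 0.404). With both factors against control, Cx3cr1, the fractalkine receptor, was at 0.50 ± 0.29, and Cxcr5, the follicle homing receptor, at -0.48 ± 0.29.

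Among 10 tested chemokines outside the group, 0 passed the adjusted threshold in any comparison. Pf4, a platelet chemokine, had signals of 99.21, 64.16 and 82.17 with both factors, against 26.98, 54.8 and 3.729 in controls, without overlap. The difference of Pf4 in that comparison was 1.22 ± 0.40 (SE; limma adjusted p = 1.0), or 0.72 without control replicate 3, and its signals were dim. Cxcl1, a neutrophil attractant, had signals of 185.2, 173.4 and 225.9 with SEMA6A, against 94.4, 128.0 and 130.6 in controls. These groups did not overlap either, and the difference was 0.62 ± 0.24 on the log2 scale (SE; limma adjusted p = 0.475). With both factors Cxcl1 was at 212.2, 181.1 and 137.3, also above all controls, with a difference of 0.5 ± 0.24, while the SEMA3A arrays overlapped the controls. Of all tested genes, 7.36% were higher without overlap in SEMA6A against control and 8.55% with both factors against control. Ccl25, a gut and thymus homing chemokine, had an interaction of -0.76 ± 0.25 (SE; limma adjusted p = 0.20). Cxcl12 was at -0.60 ± 0.38 and Ppbp at 0.67 ± 0.53 in SEMA3A against control, where Ppbp was at 0.05 without SEMA3A replicate 2. Ccl28, a mucosal chemokine, was at -0.23 ± 0.25 in SEMA6A against control.

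Of 11 listed regulators of chemokine genes, 9 were tested and 0 passed the adjusted threshold in any comparison with all 12 arrays. Ifng encodes interferon-gamma, which induces Cxcl9 and Cxcl10 and is released with XCL1 and CCL3 by the same activated cells. Its signals were 676.6, 662.5 and 587.9 with both factors. They were 444.1, 326.2 and 248.4 with SEMA6A. Signals with SEMA3A were 301.7, 332.2 and 533.6, against 538.2, 540.7 and 542.8 in controls. All signals with both factors lay above those of all controls, and all signals with a single factor lay below them. On the normalized scale of the fits, SEMA3A replicate 3 overlapped the controls. On that scale 8.55% of all tested genes were higher without overlap with both factors against control. Lower without overlap were 4.77% in SEMA6A against control and 7.31% in SEMA3A against control. The log2 difference of Ifng was -0.69 ± 0.22 in SEMA6A against control (SE; limma adjusted p = 0.475) and -0.52 ± 0.22 in SEMA3A against control (SE; limma adjusted p = 0.559). It was 0.26 ± 0.22 with both factors against control, 0.95 ± 0.22 against SEMA6A (SE; limma adjusted p = 0.424) and 0.77 ± 0.22 against SEMA3A (SE; limma adjusted p = 0.402). Its interaction was 1.46 ± 0.32 (SE; limma adjusted p = 0.197). Without SEMA6A replicate 2 the interaction of Ifng was 1.45, over all arrays left out it ran from 1.25 to 1.72, and it passed the threshold without SEMA6A replicate 1 or SEMA3A replicate 3. Its difference from control with SEMA6A also passed without SEMA6A replicate 1, at -0.91, as did that of both factors against SEMA6A, at 1.17. Klf13, a factor for Ccl5 in T cells, was at 0.24 ± 0.14 in SEMA6A against control and at 0.05 without SEMA6A replicate 2. Stat6, which carries interleukin-4 signals, was at -0.37 ± 0.18 in the interaction and at -0.22 without that array. Irf4, a factor downstream of the T cell receptor, was at -0.26 ± 0.12 with both factors against control. It was likewise at -0.33 ± 0.12 in SEMA6A against control and at -0.23 ± 0.12 in SEMA3A against control.

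**Figure D4:**
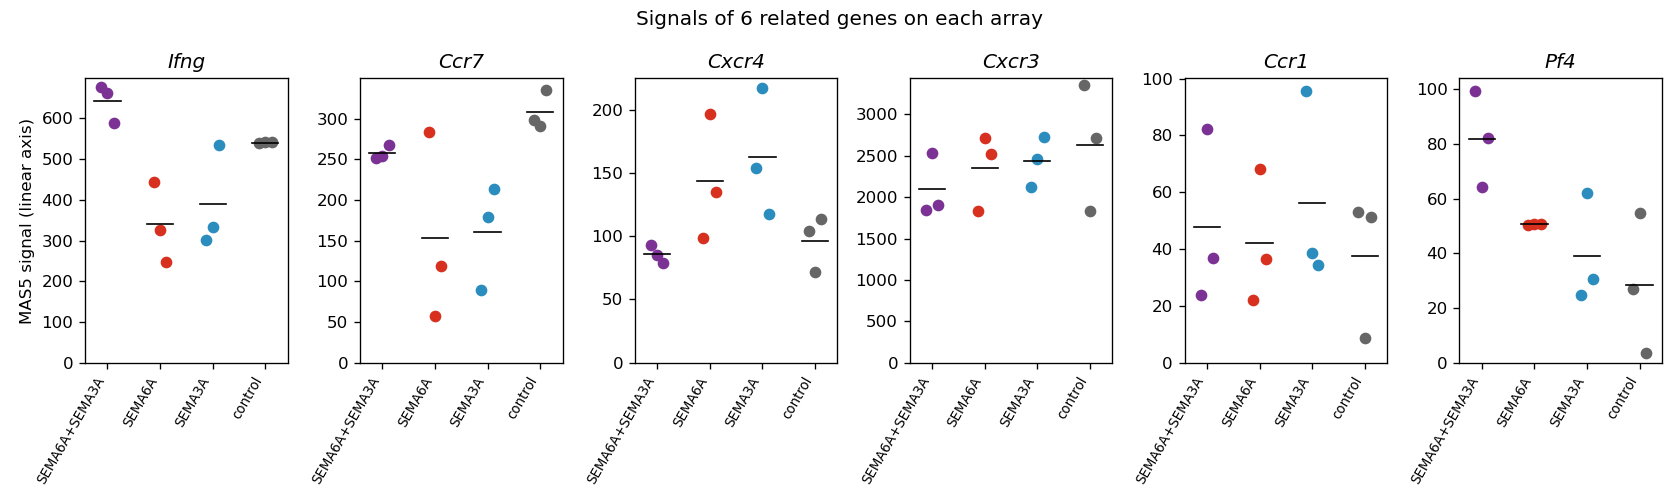
MAS5 signal (linear axis from 0) of Ifng, Ccr7, Cxcr4, Cxcr3, Ccr1 and Pf4 on the 12 arrays, by group. Points are arrays and lines are means of 3; Ifng lies at 587.9 or above with both factors, at 533.6 or below with either factor alone and between 538.2 and 542.8 in controls.

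The genes whose log2 values followed each chemokine most closely over the 12 arrays are given as a description, since the arrays share groups and RNA quality. Xcl1 was nearest to Nfe2l2 (Pearson r = 0.976, Spearman rho = 0.825) and to Csf2, the gene of the cytokine GM-CSF (r = 0.963, rho = 0.783). Ccl1 was nearest to Tmem37 (r = 0.985, rho = 0.93) and Slc19a2 (r = 0.96, rho = 0.909). Ccl3 was nearest to Tmem37 as well (r = 0.957, rho = 0.93), followed by Ccl1 (r = 0.943, rho = 0.895). Ccl1 and Ccl3 thus shared their nearest gene. Ccl4 was nearest to Ska2 (r = 0.948) and Kif18b (r = 0.913), genes of the mitotic spindle. Ccl5 was nearest to Cxcr3 (r = 0.93, rho = 0.958) and Limd2 (r = 0.921). Ccl9 was nearest to Klra8 (r = 0.887) and Prkcb (r = 0.885), and Ccl17 to Robo3 (r = 0.903) and Rmc1 (r = 0.885), all of them with r under 0.91.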

How the data were processed

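The deposited values are a linear intensity per probe set on 12 single-colour arrays. Per the submitters' processing notes MAS5 produced them, its version being not given in the sources used here. Labels put 3 arrays in each of 4 groups. Of 45037 probe sets that are not controls, 34945 named 1 gene, 932 several and 9160 were not listed in the platform annotation, and 34741 of the first were found in RefSeq's gene table (GRCm38.p6), which changed 0 symbols. Signals were taken as log2(signal + 16) and quantile normalized, since array medians differed 1.259-fold. Probe sets above their array's median on at least 3 arrays were kept (24366), with the brightest per gene (11325 genes). All 12 arrays entered 1 fit per gene in limma 3.58.1 (R 4.3.3), with a mean for each group and a trended prior (8 residual and 5.141 prior degrees of freedom), and p-values were adjusted by Benjamini-Hochberg over all genes at 0.05. The median SE was 0.153, and precision is limited by how few arrays there are. On simulated data for SEMA6A against control with 11325 genes, of which 200 were changed, 40% of 1.5-fold, 74.8% of 2-fold and 95.8% of 4-fold changes were recovered, with 4.75% false calls. The simulated noise was independent between genes and arrays, and the shares are averages over genes of every spread. They therefore do not give the recovery for Xcl1 and Ccl1, whose SE in that comparison was 0.64 and 0.59.

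The members and gene lists were chosen with earlier results of these data known. Named are all 10 members, the 6 receptors of the members that the array annotation names, per other list the gene with the smallest p in each direction and comparison, and the 2 genes nearest to each tested member. Marker genes describe RNA, not counted cells. The choices varied were the normalization (none further), the pseudocount (1 or 64), the filter (none, or the 75th percentile), the probe set (by interquartile range, or every one), the arrays in the fit, the prior without its trend, array weights, the replicate number as a block, and each array left out in turn. Leaving out each array for the named genes that are not members was chosen after their values were seen.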

Additional observations from a re-analysis of the deposited data

How the results depend on the processing

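With the settings of the report 0 of the 7 chemokines passed the threshold in any comparison. Of 429 single values under alternatives that kept all arrays of a comparison, 6 had the other sign and 3 passed it. With array weights the interaction called 3 of the 7 chemokines, Xcl1 (2.39), Ccl1 (2.55) and Ccl3 (1.42), and 1847 genes in place of 0. Array weights also called 13 genes with both factors against control, 620 against SEMA3A and 9 against SEMA6A, and with these weights Ccl17 was at -0.17 in SEMA6A against control, Xcl1 at -0.003 with both factors against control, and Ccl9 at 0.06 with both factors against SEMA3A and 0.52 in the interaction. With both factors against control, choosing probe sets by their interquartile range gave 1 gene and only the arrays compared gave 2. Both factors against SEMA6A gave 1 gene with no prior trend. Without further normalization Ccl17 was at 0.03 in SEMA3A against control, and with a pseudocount of 1 Ccl9 was at 0.04 in the interaction. The cause was not tested.

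Leaving out each array in turn, 33 of 486 values changed sign and 2 passed the threshold. Genes called ranged from 0 to 512 in SEMA6A against control, from 0 to 1 with both factors against control, from 0 to 381 with both against SEMA6A and from 0 to 1286 in the interaction, where the chemokines called ranged from 0 to 1. The 512, the 381 and the 1286 were without SEMA6A replicate 1. The median of the tested chemokines ranged from -0.51 to -0.10 in SEMA6A against control, from -0.75 to -0.07 in SEMA3A against control, from -0.51 to 0.05 with both factors against control and from 0.25 to 0.67 in the interaction. In SEMA6A against control Ccl5 ranged from -0.47 to 0.33, Ccl9 from -0.34 to 0.07 and Ccl17 from -0.04 to 0.24. In SEMA3A against control Ccl5 ranged from -0.54 to 0.27, Ccl9 from -0.75 to 0.05 and Ccl17 from -0.18 to 0.06. With both factors against control Xcl1 ranged from -0.11 to 0.27, Ccl3 from -0.41 to 0.01, Ccl4 from -0.02 to 0.27 and Ccl5 from -0.59 to 0.21. Against SEMA3A, Ccl3 ranged from -0.05 to 0.71, Ccl5 from -0.31 to 0.16 and Ccl9 from -0.57 to 0.23, and against SEMA6A Ccl5 ranged from -0.41 to 0.15. In the interaction Xcl1 ranged from 1.79 to 3.25, Ccl1 from 1.67 to 2.87, Ccl5 from -0.39 to 0.42 and Ccl9 from -0.44 to 0.36.

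With the replicate number as a block, Xcl1 was at -1.43 in SEMA6A against control (limma adjusted p = 0.548) and at 2.55 in the interaction (limma adjusted p = 0.282), and 0 genes were called in each comparison. Deviations of same-numbered arrays from their group means correlated from -0.357 to 0.142, with 1 of 18 pairs over 0.1, against 6 of 36 pairs of other numbers. With 3 arrays per group a single array weighs heavily in such deviations. They therefore cannot decide whether same-numbered arrays shared a culture or mouse. With the filter at the 75th percentile Ccl1, Ccl9 and Ccl17 gave no value, nor did Ccl17 in 3 of the fits that left out an array.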
